A study of Mus musculus with 4 samples.

Results

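Plasma lipoproteins are reshaped by a small set of secreted and surface proteins, and 7 of their genes are described here: the lipases Lpl and Lipc, the lipase inhibitor Angptl4, the cholesterol-esterifying enzyme Lcat, the phospholipid transfer protein gene Pltp, and the uptake receptors Scarb1 and Lrp1. They were taken by name from the count tables, which hold 21878 rows, and all 7 passed the filter on low counts, which left 13428 genes to test. The libraries were made from C57BL/6 mouse liver cells sorted magnetically for CD24, a surface protein, and the labels call these cells both hepatocytes and liver progenitors. In the HACY group (2 libraries) mice were injected 3 times a week for 6 weeks with Y-27632, A-83-01 and CHIR99021, at doses not given in the labels. A-83-01 inhibits TGF-beta receptor kinase and CHIR99021 inhibits glycogen synthase kinase 3. In the CCL4 group (2 libraries) the hepatotoxin carbon tetrachloride was injected 2 times a week for 6 weeks at 2 ml/kg in olive oil. Mice were 8 weeks old at injection by the protocol, and the sample labels give 6 to 8 weeks. The labels leave unclear whether HACY mice also received carbon tetrachloride, and no untreated group is among the libraries used here. They do not say whether the replicates were separate animals, so p-values measure the spread between these libraries, which may be technical.

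Lipoprotein lipase, the product of Lpl, cuts triglyceride in chylomicrons and VLDL at the capillary wall, and it is secreted mainly by muscle, fat and macrophages, with little from adult hepatocytes. Its activity is held down by the angiopoietin-like proteins. ANGPTL4 inactivates the enzyme, and ANGPTL8 takes part in its inhibition after feeding. Hepatic lipase, from Lipc, is made by hepatocytes and trims remnants and HDL. LCAT esterifies the cholesterol of HDL, PLTP moves phospholipid onto HDL, SCARB1 takes cholesteryl ester from HDL into hepatocytes, and LRP1 clears remnants.

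Libraries held 18467299 to 19314219 counts. Hepatocyte markers were abundant in every library, with 10 of 10 tested, and 8 of them rose in HACY. Macrophage markers were also present, with 10 of 10 tested and 9 higher in HACY. Their summed level was 4663 and 3155 CPM (counts scaled to sequencing depth, here with edgeR's TMM factors) in HACY replicates 1 and 2, against 1287 and 1790 in CCL4 replicates 1 and 2. Endothelial markers summed to 1365 and 1055 CPM in HACY and 489 and 830 CPM in CCL4, with 3 of 8 higher and 1 lower. Neutrophil markers summed to 53.4 and 49.2 CPM in HACY, against 62.2 and 343 CPM in CCL4, so CCL4 replicate 2 stood apart. Stellate cell and fibroblast markers summed to 698 and 588 CPM in HACY and 355 and 824 CPM in CCL4, with 9 tested and none called. Of 7 adipocyte markers 3 were tested and none was called. Lep was at 0 in every library, and Fabp4 made up nearly all of the sum, at 34.5 and 28.3 CPM in HACY and 8.19 and 23.5 CPM in CCL4. Biliary markers summed to 2918 and 4208 CPM in HACY, against 1133 and 2177 CPM in CCL4, most of it Spp1, and 1 of 6 tested, Cftr, was higher. In these bulk libraries, fewer cells of a type and less RNA per cell cannot be told apart.

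Of the 7 genes, Lpl, Pltp and Lcat rose in HACY and none fell. Lpl was 4.13-fold higher, Pltp 3.90-fold and Lcat 1.84-fold. Angptl4, Lrp1, Lipc and Scarb1 did not pass the test. The test was edgeR's quasi-likelihood test with Benjamini-Hochberg adjustment over all genes, and calls are at an adjusted p below 0.05. Across all genes 11.7% were called, 8.19% higher and 3.54% lower in HACY, and 3 of the 7 genes were called. The median log2 fold change was 0.55 over the 7 genes and -0.01 over all genes tested. Both HACY libraries were above both CCL4 libraries for 5 of the 7 genes (30.7% of all genes), and both were below for 1 (30.1% of all genes). Across all genes 60.8% had groups that did not overlap, and of the 7 genes Lipc alone overlapped.

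**Figure D1:**
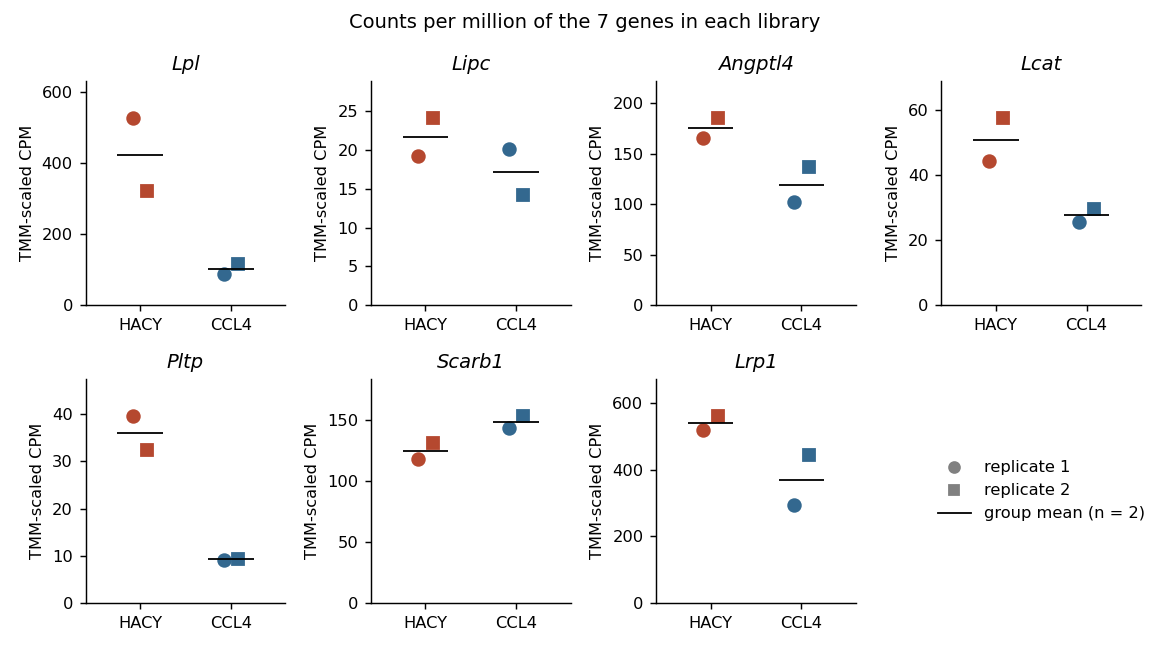
Each panel plots the TMM-scaled CPM of one gene on a linear axis from 0, with HACY libraries left and CCL4 libraries right, symbols for replicates and a line at the group mean of 2 libraries. Lpl, Pltp and Lcat separate widely by group, Scarb1 is slightly lower in HACY, and the Lipc values of the groups overlap.

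Lpl (chromosome 8, 68880491 to 68907448, plus strand, GRCm38) had 9613 and 5675 counts in HACY replicates 1 and 2, against 1759 and 2357 in CCL4 replicates 1 and 2. Scaled, these were 525 and 322 CPM in HACY and 88.9 and 116 CPM in CCL4. Both HACY libraries lay well above both CCL4 libraries, with HACY replicate 1 the highest. The log2 fold change was 2.05 (SE 0.25, 95% interval 1.46 to 2.63, edgeR adjusted p = 0.00436). It stayed past the threshold in each of the 14 other settings tried, at 1.65 to 2.36.

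Lpl was higher in HACY replicate 1 than in HACY replicate 2, as was the sum of the macrophage markers. The endothelial, stellate cell and fibroblast, neutrophil, B cell and adipocyte sums had that order too. The hepatocyte, biliary and red cell precursor sums had the opposite order. For every 100 CPM summed over the 10 macrophage markers there were 11.3 and 10.2 CPM of Lpl in HACY replicates 1 and 2, against 6.91 and 6.49 in CCL4 replicates 1 and 2. Lpl was thus higher in HACY also relative to that sum, by less than its own fold change. This depends on the marker, since Adgre1 was 5.38-fold and Clec4f 6.34-fold higher in HACY, more than Lpl at 4.13-fold. The other markers of that list had smaller fold changes than Lpl. The part of the other cell types in the Lpl result was not tested beyond these values.

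Lipc (chromosome 9, 70798128 to 70952226, minus strand) had 19.3 and 24.1 CPM in HACY, against 20.2 and 14.2 CPM in CCL4. The groups overlapped. Its log2 fold change was 0.34 (SE 0.24, 95% interval -0.22 to 0.89, edgeR adjusted p = 0.382), an interval that spans 0.861-fold to 1.85-fold. The 10 hepatocyte markers had a median log2 fold change of 1.52 and ran widely, from Ahsg at 2.27 to Hnf4a at -0.04. Hnf4a and Apob (0.60) were not called and lay inside the interval of Lipc. The other 8 were called higher and lay above that interval, the lowest being Ass1 at 0.94. Alb, albumin, had 24005 and 30358 CPM in HACY and 6971 and 5497 CPM in CCL4.

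Angptl4 (chromosome 17, 33773750 to 33781830, minus strand) had 166 and 185 CPM in HACY, against 102 and 137 CPM in CCL4. The groups did not overlap, but the CCL4 libraries differed from each other by 0.43 on the log2 scale. The log2 fold change of 0.55 (SE 0.17, 95% interval 0.16 to 0.94) missed the threshold (edgeR adjusted p = 0.0740). Without CCL4 replicate 2 it was 0.78 (edgeR adjusted p = 0.0104), and DESeq2 with all libraries gave 0.55 (adjusted p = 0.0318).

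Pltp (chromosome 2, 164839518 to 164857711, minus strand) had 725 and 571 counts in HACY, against 179 and 191 in CCL4. Scaled, it had 39.6 and 32.4 CPM in HACY and 9.05 and 9.41 CPM in CCL4, so the groups were far apart and the CCL4 libraries nearly equal. The log2 fold change was 1.96 (SE 0.19, 95% interval 1.51 to 2.42, edgeR adjusted p = 0.00220), and it stayed past the threshold in each of the 14 other settings, at 1.73 to 2.10. Pltp shares 495 exon bases with Ctsa, a lysosomal protease gene on the opposite strand, and the strand setting of the counting is not given in the sources used here. Ctsa itself had 7565 and 6132 counts in HACY and 5795 and 6073 in CCL4. For every 100 CPM of the macrophage markers there were 0.849 and 1.03 CPM of Pltp in HACY, against 0.703 and 0.526 in CCL4, and their part in the result was not tested.

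Lcat (chromosome 8, 105939551 to 105943382, minus strand) had 44.4 and 57.4 CPM in HACY, against 25.7 and 29.6 CPM in CCL4. Its HACY libraries stood in the opposite order to those of Lpl and Pltp, replicate 2 being the higher, as did the summed hepatocyte markers (30367 CPM in HACY replicate 1 and 38334 CPM in HACY replicate 2). In CCL4 the sum did not follow Lcat, which was higher in replicate 2. The sum was 9854 CPM in replicate 1 and 8649 CPM in replicate 2, most of it Alb (6971 and 5497 CPM). Single markers went both ways in CCL4. Apoa1, Apob, Fgb, Cps1, Ass1 and Hnf4a were higher in replicate 2, and Alb, Ttr, Ahsg and Serpina1a in replicate 1. The biliary sum, most of it Spp1, was higher in replicate 2 of both groups, as Lcat was. It was 2918 and 4208 CPM in HACY and 1133 and 2177 CPM in CCL4. The part of cell mix in the Lcat result was not tested. The log2 fold change of Lcat was 0.88 (SE 0.18, 95% interval 0.45 to 1.31, edgeR adjusted p = 0.0258). Leaving out HACY replicate 2 gave 0.68 (edgeR adjusted p = 0.191), and leaving out CCL4 replicate 1 gave 0.78 (0.0598), so the call rested on those libraries.

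Of the called genes, Pltp and Lcat have an entry in RefSeq's promoter table (GRCm38.p6), and the 180 bases before RefSeq's starts are shown because both genes rose. RefSeq's start of Lcat lies slightly upstream of the GENCODE start given above. Neither stretch overlaps an exon in the GENCODE annotation. Capitals mark matches on either strand to 4 motifs that were searched: TATAAA, the GC box GGGCGG, the CCAAT box CCAAT, and AGGTCA, the half-site of many nuclear receptors. The stretches are chr2:164857712-164857891 for Pltp and chr8:105943403-105943582 for Lcat, both read from the minus strand, 5′ to 3′.
Pltp: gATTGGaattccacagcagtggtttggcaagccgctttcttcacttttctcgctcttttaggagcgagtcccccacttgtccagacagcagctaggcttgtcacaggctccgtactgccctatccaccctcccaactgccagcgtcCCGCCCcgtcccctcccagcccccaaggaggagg
Lcat: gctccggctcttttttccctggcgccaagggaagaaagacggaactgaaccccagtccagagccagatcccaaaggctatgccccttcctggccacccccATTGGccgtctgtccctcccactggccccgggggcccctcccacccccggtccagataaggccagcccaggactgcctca
Both stretches hold CCAAT in reverse, and that of Pltp also holds GGGCGG in reverse, 28 bases from its right end. Over all 32851 entries the same length holds CCAAT in 27.5%, GGGCGG in 30.2%, AGGTCA in 10.3% and TATAAA in 8.94%, and the motifs were searched without regard to overlap. The letters AGGTCA and TATAAA are in neither window.

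Scarb1 (chromosome 5, 125277087 to 125341094, minus strand) was the one gene of the 7 with both HACY libraries below both CCL4 libraries, at 118 and 131 CPM in HACY and 143 and 153 CPM in CCL4. The difference was small, with a log2 fold change of -0.25 (SE 0.12, 95% interval -0.54 to 0.04, edgeR adjusted p = 0.222), and it did not pass the test. By library size alone, without TMM scaling, it was -0.42 (edgeR adjusted p = 0.0549). That scaling moved the median of all genes to -0.18.

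Lrp1 (chromosome 10, 127538161 to 127621148, minus strand) had 519 and 562 CPM in HACY, against 295 and 444 CPM in CCL4. The HACY libraries were close together and the CCL4 libraries were not. The log2 fold change was 0.55 (SE 0.19, 95% interval 0.10 to 1.00, edgeR adjusted p = 0.108), and the gene was not called. Without CCL4 replicate 2 it was 0.87 (edgeR adjusted p = 0.00894), and DESeq2 with all libraries gave 0.54 (adjusted p = 0.0460). Without CCL4 replicate 1 it was 0.28 (edgeR adjusted p = 0.208).

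**Figure D2:**
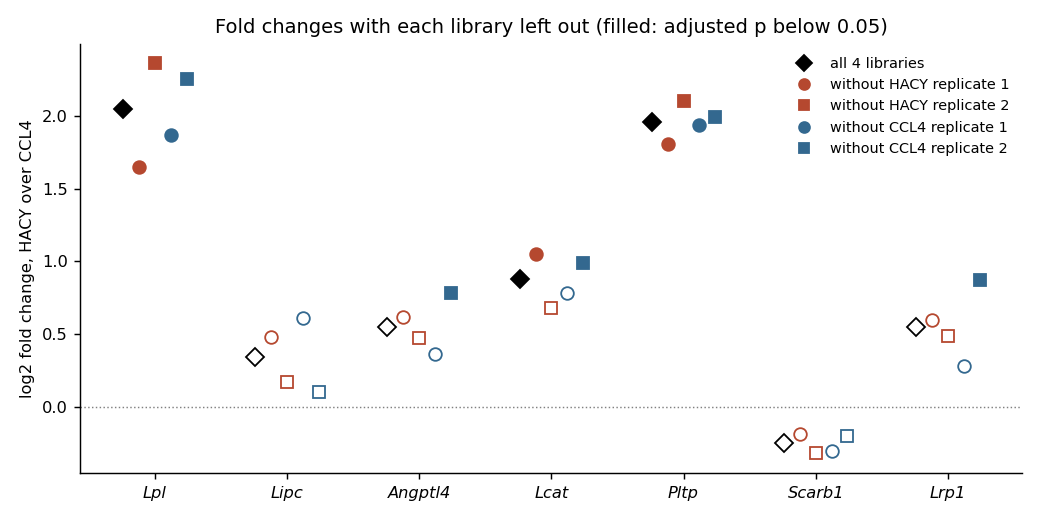
Points are log2 fold changes, HACY over CCL4, of each gene with all 4 libraries and with each library left out, filled where the edgeR adjusted p is below 0.05. Lpl and Pltp stay filled throughout, Lcat is open when HACY replicate 2 or CCL4 replicate 1 is absent, and Angptl4 and Lrp1 are filled without CCL4 replicate 2.

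Levels of different genes were compared by the deposited FPKM, which are scaled to transcript length. In HACY, Lpl averaged 73.7 ± 26.9 FPKM and Angptl4 70.5 ± 4.31 (SD, n = 2), and their ranges overlapped. Lcat (24.3 ± 4.48), Lrp1 (21.2 ± 0.853), Scarb1 (20.3 ± 1.31) and Pltp (17.8 ± 2.58) followed, each overlapping its neighbour, with Lipc last at 4.00 ± 0.458. In CCL4, Angptl4 led at 51.8 ± 11.6 FPKM, apart from Scarb1 at 27.4 ± 2.16 (SD, n = 2). Lpl came next at 19.9 ± 4.52 FPKM, with Lrp1 at 15.5 ± 4.34 and Lcat at 14.0 ± 1.78 in overlapping ranges. Pltp at 4.64 ± 0.261 and Lipc at 3.65 ± 1.09 FPKM were lowest, and the lower Pltp library (4.46) was barely above the higher Lipc library (4.42).

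Angptl4 RNA per unit of Lpl RNA was lower in both HACY libraries. The ratio of their FPKM was 0.728 and 1.35 in HACY replicates 1 and 2, against 2.60 and 2.59 in CCL4 replicates 1 and 2. Pltp per Lcat was 0.927 and 0.581 in HACY, against 0.351 and 0.317 in CCL4. Lrp1 per Scarb1 was 1.07 and 1.03 in HACY, against 0.480 and 0.641 in CCL4. None of these ratios overlapped between the groups, and no test was made of them. The CPM of each gene in these ratios already had groups that did not overlap, as 60.8% of all genes did.

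**Figure D3:**
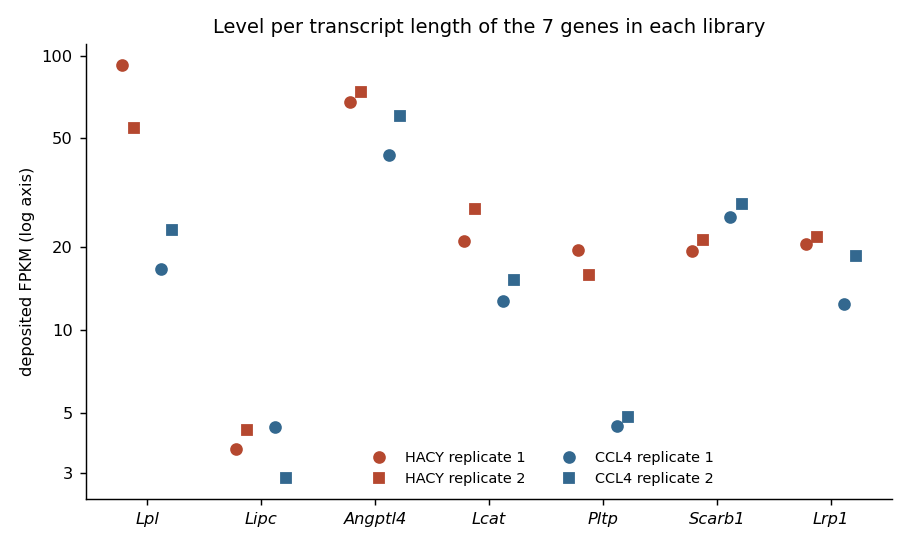
The vertical log axis gives the deposited FPKM of each gene in each library, with HACY points left of CCL4 points and a symbol for each replicate. Lpl and Angptl4 lead in HACY, Angptl4 leads in CCL4, and Lipc is lowest in every library.

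Among the partners of lipoprotein lipase, the hepatocyte-secreted inhibitor gene Angptl8 fell in HACY, 4.59-fold below CCL4. It had 46.6 and 38.6 CPM in HACY, against 172 and 220 CPM in CCL4, so both HACY libraries lay far below both CCL4 libraries. The log2 fold change was -2.20 (SE 0.17, 95% interval -2.60 to -1.79, edgeR adjusted p = 0.00127), and the call held in all 14 other settings.

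Of the 14 partner genes tested, 1 rose, 1 fell and 12 were not called, a called share near the 11.7% of all genes. Their median log2 fold change was 0.40, and it was 0.23 by library size alone. The rise was Apoa4, an apolipoprotein of chylomicrons and HDL (log2 fold change 0.92, SE 0.15, edgeR adjusted p = 0.0104). Apoc1, an apolipoprotein that inhibits the lipase, had 0.55 (SE 0.15, edgeR adjusted p = 0.0561), and passed without CCL4 replicate 2 (0.67, adjusted p = 0.0317). In that setting 6 partners were higher. Creb3l3, which encodes a liver transcription factor, had 0.65 (SE 0.20, edgeR adjusted p = 0.0843). Gpihbp1, which carries the lipase to the capillary wall, is named here after its values were seen. It had 4.64 and 7.15 CPM in HACY and 2.68 and 12.1 CPM in CCL4, with a wide 95% interval of -1.81 to 1.15 on the log2 scale. It was highest in CCL4 replicate 2, and its order over the libraries was not that of the endothelial sums.

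**Figure D4:**
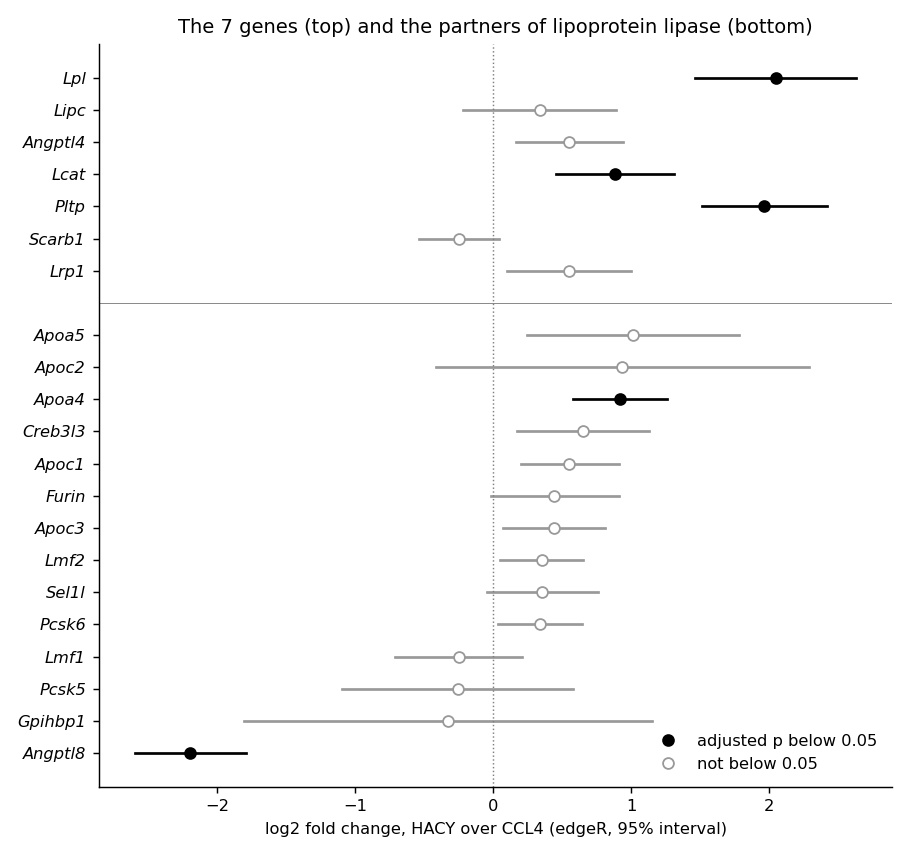
Horizontal positions are log2 fold changes, HACY over CCL4, with 95% intervals from edgeR, for the 7 genes above the line and 14 partners of lipoprotein lipase below it, filled where the adjusted p is below 0.05. Lpl and Pltp lie farthest right at 2.05 and 1.96, and Angptl8 lies farthest left at -2.20.

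Of 5 other angiopoietin-like genes listed 4 were tested, and Angptl8 alone was called. That is the same fall as counted among the lipase partners, and 3.54% of all genes were called lower. The median log2 fold change of the 4 was -1.26, and it was -0.59 without CCL4 replicate 2 and -0.53 and -0.72 by FPKM, where Angptl7 was not tested. Angptl2, a secreted inflammatory factor, had a log2 fold change of -0.69 (SE 0.21, edgeR adjusted p = 0.0822). Angptl7 had -1.72 (SE 0.69, edgeR adjusted p = 0.144) at no more than 3.80 CPM, and passed without CCL4 replicate 1 (-2.38, adjusted p = 0.0299). Without CCL4 replicate 2, which held 77 of its counts against 20 in CCL4 replicate 1, it was -0.48 (adjusted p = 0.610). Angptl6 had -0.81 (SE 0.42, edgeR adjusted p = 0.247) at no more than 2.81 CPM. Angptl1 was at 0 counts in every library.

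Of 13 other lipases listed, 7 were tested and 1 rose, a share near the 11.7% called over all genes. It was Lipa, the acid lipase of lysosomes, with 281 and 207 CPM in HACY and 108 and 134 CPM in CCL4 (log2 fold change 1.01, SE 0.18, edgeR adjusted p = 0.0168). Lipa missed the threshold once HACY replicate 1 was removed (0.77, adjusted p = 0.0625). Lipg, the endothelial lipase that acts on HDL, had 1.97 and 2.44 CPM in HACY and 3.64 and 14.2 CPM in CCL4, and was not called (log2 fold change -2.02, SE 0.62, edgeR adjusted p = 0.0810). CCL4 replicate 2 alone held the high Lipg value. Its marker sums were above those of CCL4 replicate 1 for neutrophils (343 against 62.2 CPM) and endothelium (830 against 489). The same held for stellate cells and fibroblasts (824 against 355) and biliary cells (2177 against 1133), while the hepatocyte sum was lower (8649 against 9854). The source of the Lipg value was not tested. The log2 fold change of Lipg was -2.68 without CCL4 replicate 1 and -0.72 without CCL4 replicate 2. The intracellular lipases Lipe and Mgll had log2 fold changes of -0.44 and -0.45 (edgeR adjusted p = 0.202 and 0.231). The median log2 fold change of the list was -0.05, and -0.31 to 0 in the other settings.

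Of 11 partners of Lcat, Pltp and Scarb1 in HDL metabolism, 7 rose in HACY, none fell and 4 were not called, with a median log2 fold change of 1.02. Over all genes 8.19% were called higher. Pon1, the HDL-bound paraoxonase, rose by 1.69 (SE 0.18, edgeR adjusted p = 0.00274), and Apoa1, the main HDL protein, by 1.27 (SE 0.12, adjusted p = 0.00191). Abcg1, which exports cholesterol to HDL, rose by 1.53 (SE 0.17, adjusted p = 0.00305), with 79.4 and 63.4 CPM in HACY and 23.6 and 25.9 CPM in CCL4. Apoe, a ligand of remnant receptors, rose by 1.06 (SE 0.13, adjusted p = 0.00393). Apoa1 is also one of the hepatocyte markers used here, and the part of cell mix in these rises was not tested.

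Relatives of Lrp1 in its receptor family were listed with their regulators. Of 17 tested, 1 rose, 1 fell and 15 were not called, so the called share was near the 11.7% of all genes. The median log2 fold change was 0.07, which turned to -0.10 by library size alone and -0.02 by FPKM or with HACY replicate 2 removed. The rise was Mylip, a ubiquitin ligase that degrades lipoprotein receptors (0.78, SE 0.19, edgeR adjusted p = 0.0432), and the fall was Lrp3 (-0.66, SE 0.16, adjusted p = 0.0430). Mylip and Lrp3 missed the threshold when any one of 3 libraries was removed, which were HACY replicate 1 (adjusted p = 0.300 and 0.302), HACY replicate 2 (0.168 and 0.187) and CCL4 replicate 1 (0.0723 and 0.0710). Without CCL4 replicate 2, 3 genes were higher and 2 lower. Lrpap1, the chaperone of LRP1, had 0.49 (SE 0.14, adjusted p = 0.0702) and Lrp12 had 0.62 (SE 0.17, adjusted p = 0.0534), and both passed without CCL4 replicate 2 (0.62, adjusted p = 0.0181, and 0.75, 0.0246).

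Scavenger receptors, the wider class of Scarb1, were also listed. Of 16 tested, 7 rose and none fell, where 8.19% of all genes were called higher. Their median log2 fold change was 0.96, and it was 0.53 without CCL4 replicate 1. Marco and Msr1, which bind modified lipoproteins on macrophages, rose by 1.86 (SE 0.17, edgeR adjusted p = 0.00183) and 1.56 (SE 0.19, adjusted p = 0.00416). Cd163, a haemoglobin scavenger of macrophages, rose by 1.76 (SE 0.24, adjusted p = 0.00636), and Cd36, a fatty acid and lipoprotein receptor, by 1.34 (SE 0.21, adjusted p = 0.00923). Marco and Cd68 of this list are also macrophage markers here, whose median log2 fold change was 1.57, and their part in the result was not tested.

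Lists of genes driven by lipid-sensing receptors were also described, because Angptl4 is a target of PPAR receptors and Lpl and Pltp are targets of the oxysterol receptor LXR. Of 11 LXR targets tested, 8 rose and none fell, with a median log2 fold change of 0.78, where 8.19% of all genes were called higher. Not called were Srebf1 (log2 fold change 0.03), Abcg5 (-0.32) and Abcg8 (-0.63), the last 2 at no more than 2.07 and 3.35 CPM. The part of LXR or of cell mix in this count was not tested. Smpdl3a, a phosphodiesterase, rose by 1.65 (SE 0.21, edgeR adjusted p = 0.00456), and Nr1h3, which encodes LXR alpha, by 1.01 (SE 0.15, adjusted p = 0.00782). Nr1h3 missed the threshold once HACY replicate 1 was removed (0.90, adjusted p = 0.0555). Abcg1, Apoe and Mylip of the lists above are counted here too, as is Abca1 of the HDL list (0.57, edgeR adjusted p = 0.0371). Removing HACY replicate 1 left 4 rises, removing HACY replicate 2 left 5, and removing CCL4 replicate 1 left 4.

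Of 14 PPAR targets 2 rose and none fell, a called share near the 11.7% of all genes. Their median log2 fold change was 0.12, and it lay between -0.06 (by library size alone) and 0.24 in the other settings. Fabp1, the fatty acid binding protein of hepatocytes, rose by 2.24 (SE 0.31, edgeR adjusted p = 0.00634) and Cyp4a10, a fatty acid hydroxylase, by 1.34 (SE 0.32, adjusted p = 0.0401). Cyp4a10 missed the threshold once HACY replicate 2 (0.98, adjusted p = 0.213) or CCL4 replicate 2 (1.04, 0.0594) was removed. Creb3l3 had the same values as given above for the lipase partners, and the hormone gene Fgf21 had -2.10 (SE 0.56, adjusted p = 0.0533) at no more than 1.68 CPM.

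**Figure D5:**
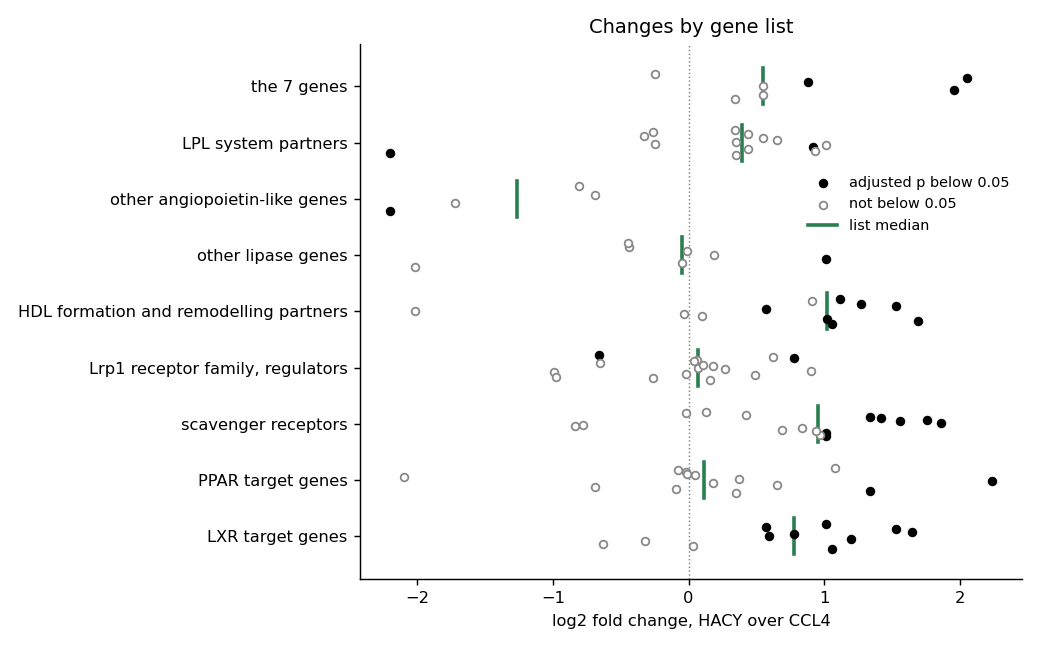
Each row is a gene list and each point a tested gene at its log2 fold change, HACY over CCL4, filled where the edgeR adjusted p is below 0.05, with a green line at the list median. The vertical place of points within a row carries no value. HDL partners, scavenger receptors and LXR targets have medians of 1.02, 0.96 (0.53 without CCL4 replicate 1) and 0.78, and the Lrp1 receptor family lies near 0 at 0.07, a sign that changes by library size alone, by FPKM and with HACY replicate 2 removed.

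The genes whose pattern over the 4 libraries was nearest to each of the 7 were found by the Euclidean distance between mean-centred log2 CPM values, among 10700 candidates whose mean was 5 CPM or more. Nearest to Lpl were Cd180 (distance 0.124), Evl (0.157) and Ly86 (0.179). Cd180 and Ly86 encode a receptor pair of B cells and myeloid cells. The 6 B cell markers listed summed to 30.4 and 25.1 CPM in HACY and 26.1 and 26.3 CPM in CCL4, with none called. Which cells gave the Lpl pattern was not tested. Nearest to Pltp were Uox (0.0587), Kcnk13 (0.0673) and Oasl2 (0.0739), and nearest to Lcat were F12 (0.0640), S100a10 (0.0705) and Cd1d1 (0.0868). Scarb1 had Cox8a (0.00560), Glrx5 (0.0273) and R3hdm4 (0.0288) as neighbours, and Lrp1 had Nrep (0.0369), Esyt1 (0.0618) and Ahnak (0.0726). Angptl4 had Gmnn (0.0394), Nudt1 (0.0406) and Pla2r1 (0.0454), and Lipc had Tmed5 (0.050), Frk (0.0766) and Tceal8 (0.0856). With 4 libraries such nearness is a description only.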

How the data were processed

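Per the labels' protocols, mRNA of MACS-sorted CD24+ cells was sequenced in paired-end, stranded form. The count column of each deposited table holds raw read counts per gene symbol, and the FPKM column was scaled to transcript length and depth by the authors, per the file headers. Trimmomatic, HISAT2, Cufflinks, HTSeq, DESeq and the build mm10 (the same assembly as GRCm38) are named per the submitters' processing notes. The sources used here give neither the annotation nor the strand setting.

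Genes passing filterByExpr (10 counts as the minimum, 15 in total) were TMM-scaled and tested with edgeR 4.0.16 (robust quasi-likelihood, two-sided, treatment as the only term, R 4.3.3). Each standard error was taken from the log2 fold change and its F statistic, so intervals are approximate. Scaled counts (CPM) are edgeR's, and log2 CPM used a prior count of 2. The method was tested on simulated counts for the same 4 libraries. It recovered 5 of 50 genes changed 1.5-fold and 28 of 50 changed 2-fold. It recovered 41 of 50 changed 4-fold and 49 of 50 changed 8-fold, with 10 false calls among 133. The data gave 1576 calls, so the Benjamini-Hochberg cutoff was stricter in the simulation, and these shares need not hold for the data. A gene that was not called may still differ by 1.5-fold. The floor for a gene at 0 was set at 3 counts (0.148 to 0.170 CPM by library), which covers counting error only. Replicates differed beyond counting noise (chi-square per degree of freedom 16.7 in HACY and 30.0 in CCL4).

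The members and lists were chosen with earlier results of these data known. Some genes of the lists are not reported here and were left out of list counts and medians. Named genes are the 7, up to 4 per list with the smallest p, and the 3 nearest patterns per gene, passing over predicted genes. Other settings tried were DESeq2 1.42.0, limma-voom (limma 3.58.1), scaling by RLE, upper quartile or library size, no filter, a stricter filter (1 CPM), a replicate block, each library left out, and limma on log2 FPKM with pseudocounts of 1 and 0.1 (mean FPKM of at least 0.5).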

Additional observations from a re-analysis of the deposited data

How the results depend on the processing

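Lpl and Pltp kept their calls in all 14 settings, no direction of the 7 genes or of the list genes named by the rule changed (Angptl7 was below the FPKM minimum and has 12 settings), and none of the 7 was called lower in any. Among all genes 1576 were called (1100 higher, 476 lower). Leaving out a library gave 629 to 3047 calls, 530 to 1840 higher and 99 to 1207 lower, and log2(FPKM + 1) and log2(FPKM + 0.1) gave 662 and 652 higher. Lower calls numbered 1355 by library size and 738 by DESeq2. Higher calls were 69.8% of calls in the main test, 60.1% with upper-quartile scaling, 38.7% by library size and 51.1% and 50.7% by FPKM. Of the 7 genes 5 rose by DESeq2 and 2 to 5 with a library left out. Those ranges were 0.36 to 0.78 for Angptl4, 0.68 to 1.05 for Lcat and 0.28 to 0.87 for Lrp1. Angptl4 passed by DESeq2 (0.55), with no filter (0.55, adjusted p = 0.0436) and with the replicate block (0.57, 0.0477), and Lrp1 by DESeq2 (0.54). The differences between replicates 1 and 2 had a correlation of -0.0989 between the groups. With 2 replicates per group this cannot show whether the libraries were paired. The replicate block gave 1224 calls.

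Counts of list genes changed as follows, the cause being not tested. Lipase partners had 3 rises by DESeq2, 2 with no filter, 2 with the replicate block and 1 to 6 with a library left out. Other angiopoietin-like genes had 2 falls by library size and 1 to 2 with a library left out. Other lipases had 0 rises by either FPKM fit and 0 to 1 with a library left out, and 1 fall by library size, 1 by DESeq2 and 0 to 1 with a library left out. HDL partners and scavenger receptors each had 1 fall by library size, 1 by DESeq2 and 0 to 1 with a library left out. The Lrp1 receptor family had 0 rises with upper-quartile scaling, by library size, with the replicate block and by FPKM, 2 by DESeq2 and with no filter, and 0 to 3 with a library left out, and 2 falls by library size, 0 with the replicate block and 0 to 2 with a library left out. PPAR targets had 1 rise with the replicate block and by FPKM and 1 to 3 with a library left out, and 2 falls by library size, 1 with the stricter filter, 1 by FPKM and 0 to 1 with a library left out. LXR targets had 5 rises with upper-quartile scaling, by library size and by FPKM, and 4 to 8 with a library left out. Fits without a library assume that the lone library of a group varies like the other group.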
